A study of Homo sapiens with 24 samples.

Results

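Doxycycline (dox) withdrawal from the VHL-null clone MUT10 was followed by RNA sequencing in 8 of the 24 libraries of the series, 4 made from cells kept on dox and 4 from cells after dox was taken away. The libraries were chosen by clone and dox state alone. MUT10 is a clone of HK2, an immortalised line of human renal proximal tubule cells, in which CRISPR-Cas9 had knocked out the endogenous VHL gene and VHL expression is placed under dox, so that both groups share the knockout and the transgene and differ in dox. The other 16 libraries, 4 in each dox state, came from WT8, which also carries dox-regulated VHL and whose endogenous VHL is described as intact, and from MUT35, a second knockout clone. A sentence of the study's methods nonetheless counts WT8 among the VHL-mutated derivatives. These libraries serve here only to show where MUT10 differs. Each clone descends from a single cell, so that MUT10 is 1 knockout line and not a sample of many. The dox dose and the time since withdrawal are not given in the sources used here.

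VHL encodes the substrate-recognition subunit of a cullin-RING ubiquitin ligase. With oxygen present, prolyl hydroxylases of the EGLN family mark the alpha subunits of the hypoxia-inducible factors, HIF1A and EPAS1 (also called HIF2A), and the VHL ligase sends the marked proteins to the proteasome. Without VHL the alpha subunits accumulate, pair with ARNT and bind hypoxia response elements at genes for glucose uptake, glycolysis, angiogenesis and pH control. VHL is the gene most often lost in clear cell renal cell carcinoma, a tumour thought to arise from the proximal tubule. RNA counts do not measure the HIF proteins themselves.

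The 8 MUT10 libraries held between 8259577 and 13185447 counts, within the range of all 24 libraries (5206663 to 18196003). Levels are CPM, counts scaled to library size by edgeR's TMM factors, and differences are log2 fold changes of dox off over dox on with their standard error (SE). The sample labels name HK2 but also a lung tissue, and they call the MUT10 libraries with dox wild type and those without dox VHL mutant. The renal lineage markers summed to 377 to 499 CPM with dox and 823 to 1220.3 CPM without, the lung markers to 11.0 to 18.7 CPM and 20.7 to 28.0 CPM, with SFTPA1, SFTPA2, SFTPC and SCGB3A2 at 0 in all 8 libraries. Proximal tubule markers were detected in part: 4 of 16 passed the filter on low counts, and SLC22A6, SLC22A8 and FBP1 were among those at 0. Of the endothelial markers 0 of 6 passed the filter, with KDR and CLDN5 at 0, and of the leukocyte markers only CD68, with CD3E at 0. The labels number the replicates but do not say whether they were separate cultures, so that p-values measure the spread between these libraries. Nothing says which libraries were prepared together, and a preparation batch and the dox state therefore cannot be told apart.

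VHL itself (chromosome 3, 10141778 to 10153667 in GRCh38) was the first gene examined. With dox, its level was 371, 385, 400.4 and 369 CPM in the 4 libraries, and after withdrawal it was 26.98, 30.4, 28.5 and 34.1 CPM. The groups were far apart and tight, at 381 ± 14.8 (SD, n = 4) against 29.99 ± 3.07 (SD, n = 4), a level 12.7-fold higher with dox (exact permutation test, 2-sided, p = 0.0286, which is the lowest that 4 against 4 can give; log2 fold change -3.67). MUT10 reached the highest VHL level with dox of the 3 clones, against 220.2 ± 15.05 in WT8 and 229 ± 30.8 in MUT35 (SD, n = 4 each), and its withdrawal effect differed from that in WT8 by -0.80 on the log2 scale (SE 0.12, adjusted p = 1.4e-05 in edgeR's quasi-likelihood test). Without dox, VHL RNA was at 26.1 to 32.7 CPM in WT8, overlapping MUT10, and at 17.8 to 18.6 CPM in MUT35. The RNA level after withdrawal therefore does not by itself show the knockout in MUT10. The counts are per gene symbol, and transcripts of the transgene and of the edited endogenous gene cannot be told apart. The plot of CPM by library shows VHL with 7 other genes described below.

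**Figure D1:**
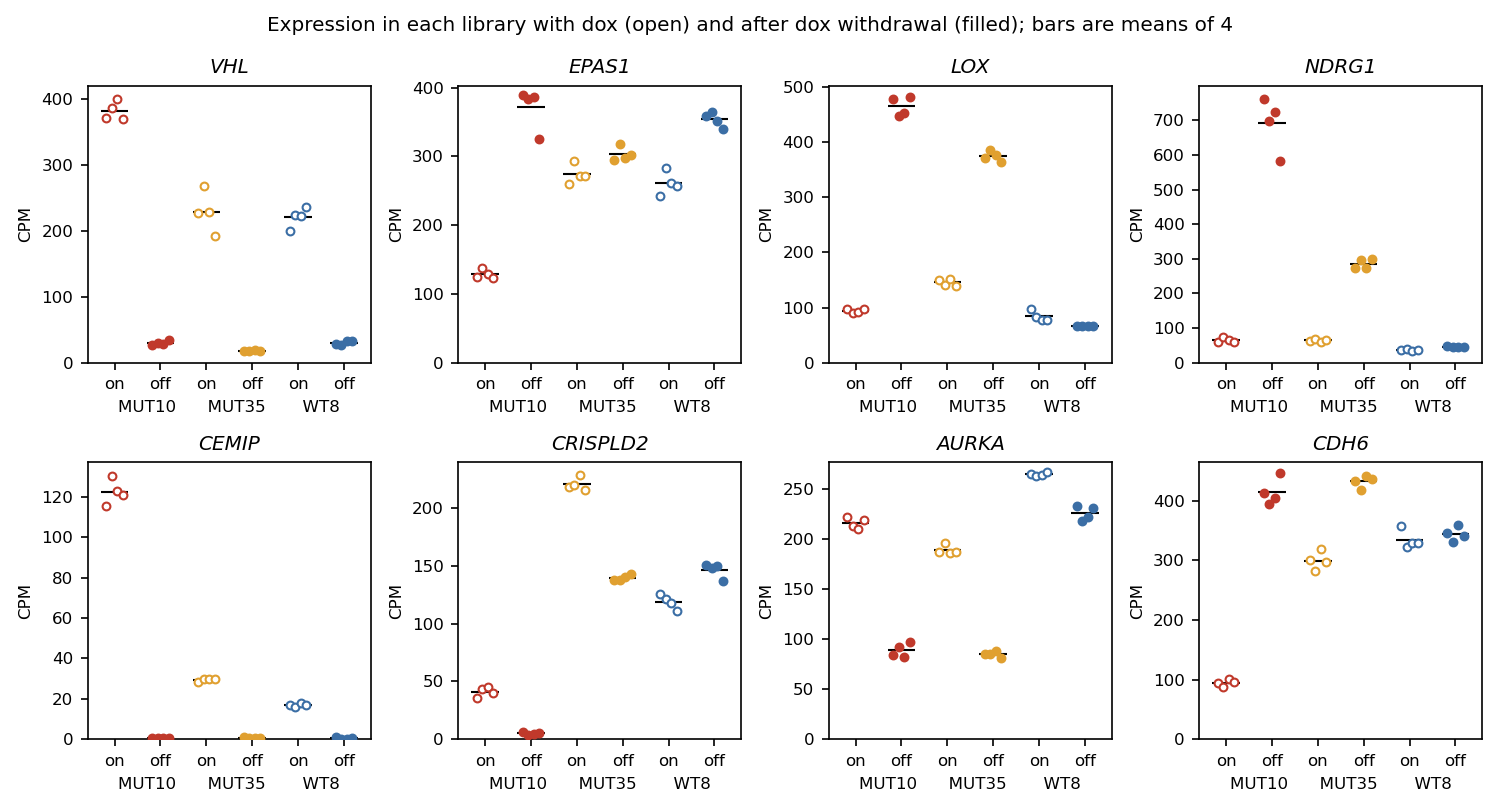
Level in CPM (vertical axes, each with its own scale) of VHL, EPAS1, LOX, NDRG1, CEMIP, CRISPLD2, AURKA and CDH6 in each of the 24 libraries, by clone (horizontal axis). Open circles are libraries with dox, filled circles libraries after withdrawal, and bars group means. In MUT10 the 2 dox states do not overlap for any of the 8 genes, and EPAS1 and CDH6 differ between clones mainly with dox, where MUT10 averaged 128 and 94.1 CPM.

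A large share of the transcriptome differed between the dox states. Of 13900 genes tested, 4702 were higher without dox (33.8% of those tested) and 4485 were lower (32.3%), at a Benjamini-Hochberg adjusted p under 0.05 in edgeR's quasi-likelihood test. For the middle called gene the change was 0.62 on the log2 scale, whatever its sign. Past 2-fold, 1250 genes (8.99%) rose and 747 (5.37%) fell. Such wide change was not particular to MUT10. In WT8 4102 genes were higher without dox and 4144 lower, and in MUT35 4442 and 4348. Of the MUT10 genes past 2-fold, 700 of the 1250 and 548 of the 747 were also called in the same direction in WT8. Every library without dox lay above every library with dox for 25.1% of the genes tested, and below for 24.7%. These shares are the background against which each gene group is read, since a group in which such a share of members is higher does not stand apart from the rest of the genes.

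The GC content of the transcripts moved with the dox state. Genes higher by over 2-fold had a median GC content of 58.7% and genes lower by over 2-fold 42.3%, against 49.2% over all genes tested. Each library's own trend with GC, in log2 CPM for each 10 points of GC, was -0.31, -0.03, -0.23 and -0.36 with dox and 0.44, 0.27, 0.34 and -0.02 without, so that replicate 2 with dox and replicate 4 without lay between the others. The share of counts on RNA18S5, a ribosomal RNA, was 0.155 to 0.222% with dox and 0.258 to 0.322% without. The other clones split by dox state too. WT8 trends ran from -0.38 to -0.12 with dox and 0.20 to 0.32 without, those of MUT35 from -0.35 to -0.20 and 0.16 to 0.30. The RNA18S5 share was 0.153 to 0.274% and 0.306 to 0.348% in WT8, and 0.173 to 0.253% and 0.311 to 0.397% in MUT35. The Spearman correlation of the MUT10 fold change with GC across 13458 genes, which are not independent replicates, was 0.57. Its part in the results was measured by removing each library's trend with GC and refitting, which left 4222 genes higher (31.4%) and 4119 lower (30.6%), 767 and 441 of them by over 2-fold. Of the genes past 2-fold before removal that had a GC value, 615 of 1196 higher and 318 of 721 lower stayed past 2-fold, and 382 genes were called in opposite directions by the 2 fits. Values below are without this removal unless stated, and the value after removal is given where it turns a group's balance or moves its median by over 1.5 times. Both libraries of intermediate trend enter every value, and leaving them out raised the counts past 2-fold to 1657 higher and 1208 lower.

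**Figure D2:**
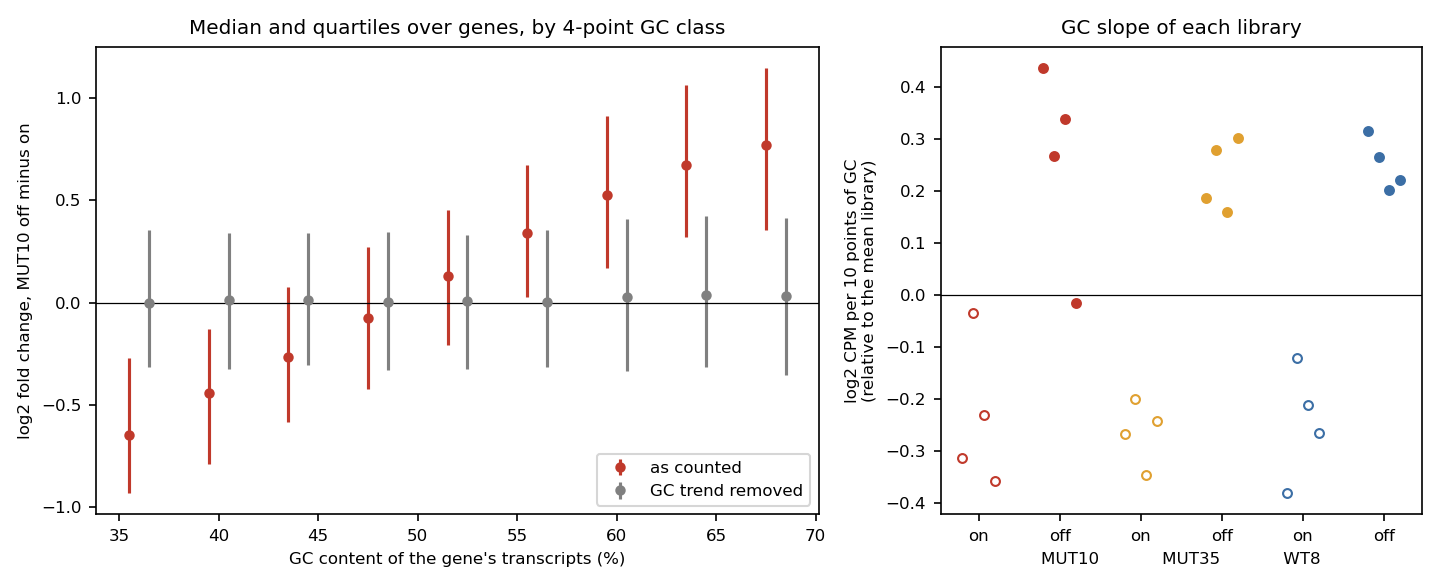
Left, log2 fold change of dox off over dox on in MUT10 (vertical axis) against transcript GC content in classes of 4 points (horizontal axis, percent), as the median and quartiles of each class, before and after each library's GC trend was removed. Right, the GC trend of each library in log2 CPM per 10 points of GC; the MUT10 libraries without dox span -0.02 to 0.44 and those with dox -0.36 to -0.03.

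The withdrawal effect of MUT10 was also set against that of the other clones by testing the difference of the effects. It was above the effect in WT8 for 2084 genes (15% of those tested) and below for 1891 (13.6%), and above the effect in MUT35 for 931 (6.7%) and below for 613 (4.41%). Within MUT10, the absence of dox and the loss of VHL cannot be told apart. In WT8 dox was withdrawn too while the endogenous VHL gene stayed, so the first test asks where the knockout clone responded otherwise, and the second where MUT10 departed from the other knockout. The difference from WT8 carried almost no trend with GC (Spearman correlation 0.01 across 13458 genes). Removing the GC trend nonetheless raised the counts against WT8 to 2518 above and 2620 below. The counts against MUT35 rose to 1403 above and 1230 below. All 3 contrasts use the same MUT10 libraries, so they are not separate evidence on a gene.

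The genes of the VHL-HIF axis itself changed in both directions. Of 16 tested, 9 were higher and 5 lower, with a median log2 fold change of 0.30 against 0.04 over all genes tested, the value beside which each group's median stands. With the GC trend removed 8 were higher and 4 lower (median 0.20). Against WT8, 4 were above and 2 below, and against MUT35 4 above. EPAS1, the HIF2 alpha subunit (chromosome 2, 46293667 to 46386697), was at 125, 137, 129 and 122 CPM with dox and 389, 383, 386 and 325 CPM without. Every library without dox was above every library with it, replicate 4 without dox being the lowest of its group (log2 fold change 1.53, SE 0.06, adjusted p = 4.1e-17; edgeR). With dox, MUT10 held less EPAS1 RNA (128 CPM) than WT8 (261) or MUT35 (274), while without dox the clones averaged 371, 354 and 303 CPM. The rise in MUT10 was therefore larger than in WT8 by 1.09 (SE 0.08, adjusted p = 1e-10) and than in MUT35 by 1.39 (SE 0.08, adjusted p = 5.3e-12) on the log2 scale. HIF1A RNA fell by a little, from 2241 ± 98.8 to 1725 ± 249.7 CPM (log2 fold change -0.38, SE 0.07, adjusted p = 4.6e-05), a change that was 0.04 once the GC trend was removed (adjusted p = 0.31). Its partner ARNT was 0.34 (adjusted p = 6.7e-05).

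The HIF prolyl hydroxylases EGLN3 and EGLN1 rose. EGLN3 went from 6.14 to 20.4 CPM (log2 fold change 1.72, SE 0.13, adjusted p = 3.4e-11; edgeR) and EGLN1 from 69.8 to 117 CPM (log2 fold change 0.75, SE 0.09, adjusted p = 7.8e-08). Both are themselves known HIF target genes that act back on the alpha subunits. CITED2, a competitor of HIF for its coactivators, and EP300, one of those coactivators, rose by 0.63 and 0.68 on the log2 scale. Components of the VHL ligase other than VHL fell, with TCEB1 (elongin C) at -1.25, RBX1 at -0.69 and, as counted, the cullin CUL2 at -0.52 (adjusted p = 7.6e-08, 1.1e-06 and 3e-05; CUL2 -0.05 after GC removal, adjusted p = 0.51). The elongin B gene TCEB2 was at 97.04 CPM with dox and 96.7 CPM without (adjusted p = 0.96), and -0.47 after the GC trend was removed (adjusted p = 6.7e-07).

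Most HIF target genes rose. Of 40 tested among 45 listed, 36 were higher, 3 were lower and 1 was not called, against 33.8% of all genes higher, with a median log2 fold change of 1.28 (1.31 after GC removal). ALDOC, CXCR4, EPO, NDUFA4L2 and RCOR2 were too low to test. The median in WT8 was -0.18 and in MUT35 0.81. The effect in MUT10 was above that in WT8 for 35 of the 40 and below for 1, and above that in MUT35 for 26 and below for 4. The rises of the whole group in MUT10, WT8 and MUT35 are plotted gene by gene below.

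**Figure D3:**
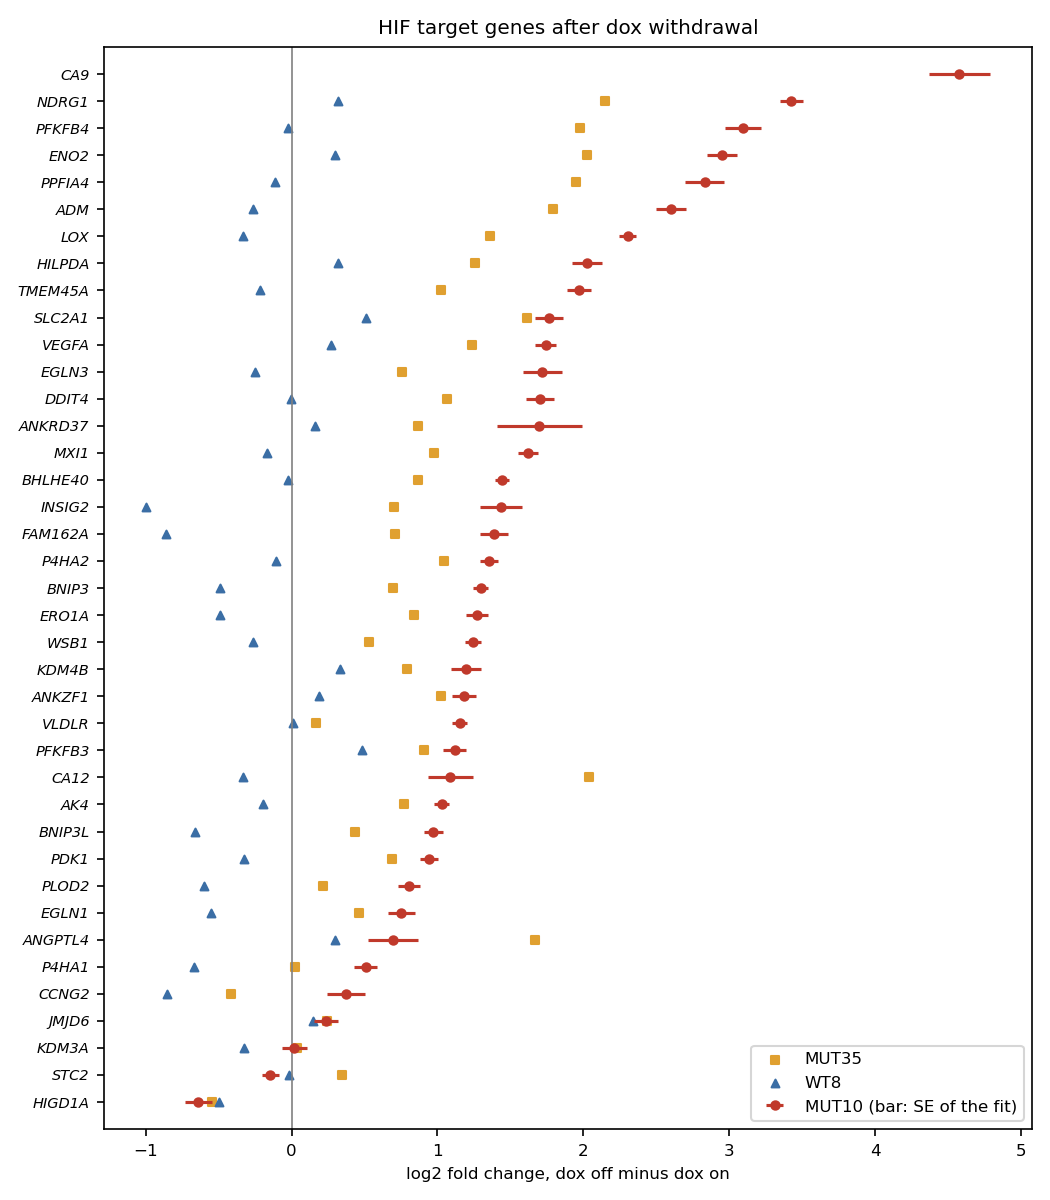
Log2 fold change of dox off over dox on (horizontal axis) for 39 of the 40 tested HIF targets (vertical axis, ordered by MUT10) in MUT10, with SE as bars, and in WT8 and MUT35; CA9 is shown for MUT10 alone because its counts in the other clones are at the detection floor. The MUT10 points reach 4.58 for CA9 and 36 are called higher; 1 of the 3 members called lower is not drawn.

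Promoters of 4 of the strongest risers are printed to show the sequence next to which these changes were measured. They were taken in order of adjusted p among risers over 2-fold that are HIF targets or among the 12 largest rises. Each had to have a promoter in the RefSeq table with a core of the hypoxia response element in its 300 bases. The presence of a core was thus set by the choice. Genes without a core, or on a chromosome not printed here, were passed over, NDRG1 among them. Each is the 250 bases before the annotated start on GRCh38.p14, read 5′ to 3′ on the gene's strand, with the core of the hypoxia response element in capitals, ACGTG or GCGTG on either strand (CACGT or CACGC when it lies on the other strand). LOX is at chr5:122078260-122078509 on the minus strand, ARFGEF3 at chr6:138161689-138161938, BHLHE40 at chr3:4979187-4979436 and ENO2 at chr12:6914330-6914579, these 3 on the plus strand.
LOX: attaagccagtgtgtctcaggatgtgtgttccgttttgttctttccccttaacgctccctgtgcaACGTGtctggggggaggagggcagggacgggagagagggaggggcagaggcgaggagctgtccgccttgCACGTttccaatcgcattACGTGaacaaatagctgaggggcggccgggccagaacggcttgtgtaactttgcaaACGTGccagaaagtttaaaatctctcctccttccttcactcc
ARFGEF3: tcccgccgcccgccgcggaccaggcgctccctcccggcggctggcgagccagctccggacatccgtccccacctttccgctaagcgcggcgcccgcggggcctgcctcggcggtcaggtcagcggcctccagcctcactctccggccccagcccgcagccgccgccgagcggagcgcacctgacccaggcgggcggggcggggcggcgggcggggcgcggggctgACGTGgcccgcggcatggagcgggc
BHLHE40: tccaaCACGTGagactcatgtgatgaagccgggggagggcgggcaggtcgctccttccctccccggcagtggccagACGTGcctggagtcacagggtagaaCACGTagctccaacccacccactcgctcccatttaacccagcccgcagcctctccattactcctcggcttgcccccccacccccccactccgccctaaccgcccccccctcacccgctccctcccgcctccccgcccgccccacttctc
ENO2: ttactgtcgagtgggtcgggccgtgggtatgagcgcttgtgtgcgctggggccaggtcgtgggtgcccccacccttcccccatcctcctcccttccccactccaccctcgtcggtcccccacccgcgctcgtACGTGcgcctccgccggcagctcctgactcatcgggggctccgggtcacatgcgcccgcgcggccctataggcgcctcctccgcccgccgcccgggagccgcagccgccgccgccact

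The printed windows held 4 cores for LOX, 4 for BHLHE40, 1 for ENO2 and 1 for ARFGEF3, where overlapping matches count separately. Such short cores are common: over 300 bases (250 before and 50 after the start) they were found in 48.4% of 27305 RefSeq promoters and in 63.1% of the 10269 that belong to tested genes. Promoters of genes that rose over 2-fold held a core in 59.3%, of genes that fell over 2-fold in 62.3% and of genes not called in 61.6%. Of 33 HIF target promoters with a match in the table, 84.8% held a core, and these genes are listed for being HIF targets. A match describes letters and not a bound site.

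NDRG1, a stress-induced protein and a widely used readout of HIF activity, was at 59.3, 73.5, 64.03 and 60.6 CPM with dox and 763, 698, 725 and 582 CPM without. The groups were far apart in every library (log2 fold change 3.43, SE 0.08, adjusted p = 7.1e-22; edgeR), and the log2 fold change in WT8 was 0.32 and in MUT35 2.15. LOX, the collagen-crosslinking lysyl oxidase, went from 96.5, 90.4, 92.4 and 97.4 CPM to 479, 448, 453 and 481 CPM (log2 fold change 2.3, SE 0.06, adjusted p = 2.7e-21). All 4 libraries without dox were above all 4 with it, as they were for BHLHE40, a transcriptional repressor of the clock and hypoxia responses, which went from 108, 110.1, 107 and 108 to 312, 302, 293 and 266 CPM (log2 fold change 1.44, SE 0.05, adjusted p = 1.7e-18). ENO2, the neuronal form of the glycolytic enzyme enolase, rose from 70.5 ± 12.05 to 545 ± 59.8 CPM (SD, n = 4 each), a log2 fold change of 2.95, and PFKFB4, which makes the activator of phosphofructokinase, rose by 3.1.

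CA9, the membrane carbonic anhydrase used as a marker of VHL loss in kidney cancer, was at 0.599, 0.918, 1.26 and 1.12 CPM with dox and 28.5, 21.3, 27.8 and 18.8 CPM without. No library of one state reached the other (log2 fold change 4.58, SE 0.21, adjusted p = 8.4e-16). In WT8 and MUT35, with or without dox, CA9 stayed at or under about 0.12 CPM on average, near the level of 3 counts in a library, so no fold is given there and MUT10 was the one clone of the 3 with a clear CA9 signal. Its paralog CA12 rose in MUT10 by 1.09, below the 2.04 of MUT35 (adjusted p of the difference 0.0015). The effect in MUT10 was also below that in MUT35 for ANGPTL4, an inhibitor of lipoprotein lipase (0.69 against 1.67, adjusted p = 0.0049), whose rise in MUT10 was 0.07 after GC removal (adjusted p = 0.74). VEGFA, the main angiogenic ligand, rose from 30.1 to 101 CPM (log2 fold change 1.74, SE 0.07, adjusted p = 1.1e-16), and ADM, the vasodilator adrenomedullin, by 2.6.

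HIGD1A, a mitochondrial protein of the hypoxia response, went against the group. It was at 103, 79.5, 94.2 and 99.4 CPM with dox and 49.8, 64.7, 55.2 and 70.8 CPM without. Every library without dox was below every library with dox (log2 fold change -0.64, SE 0.09, adjusted p = 1.5e-06). STC2, a secreted glycoprotein, was also lower, at -0.15, and KDM3A, a histone demethylase induced by HIF, was at 41.1 CPM with dox and 41.5 CPM without (adjusted p = 0.86).

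Genes of glycolysis rose, from the glucose transporters to the lactate dehydrogenase LDHA (0.69). Of 20 genes tested, 17 were higher and 3 lower, at a median of 0.97 on the log2 scale (0.79 with the GC trend removed), 0.14 in WT8 and 0.66 in MUT35. PGK1, which makes ATP in the second stage of the pathway, was at 1105, 1095, 1124 and 1082 CPM with dox and 2876, 3039.7, 3063 and 3644 CPM without. The groups did not overlap (log2 fold change 1.52, SE 0.06, adjusted p = 4.1e-17). The glucose transporters SLC2A1 and SLC2A3 rose by 1.76 and 1.55, TPI1 by 1.42 and GAPDH by 1.41. LDHB, the form of lactate dehydrogenase that favours pyruvate, fell (-0.80, adjusted p = 1.3e-09), as did the muscle phosphofructokinase PFKM (-0.47) and, as counted, the lactate carrier SLC16A1 (-0.27, and 0.10 after GC removal, adjusted p = 0.15). The effect was above that of WT8 for 16 of the 20 and above that of MUT35 for 5.

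Genes of glycogen storage rose as well, 7 of 10 with 2 lower, at a median of 0.94 (-0.01 in WT8 and 0.57 in MUT35). GYS1, the glycogen synthase of tissues other than liver, was at 42.03, 57.01, 44.8 and 41.7 CPM with dox and 266, 220.0, 245 and 172 CPM without. All 4 libraries without dox were higher (log2 fold change 2.28, SE 0.11, adjusted p = 3e-15). PPP1R3B and PPP1R3C, which bring protein phosphatase 1 to glycogen, rose by 1.55 and 1.8, and the branching enzyme GBE1 by 1.2. The primer glycogenin GYG1 was lower (-0.37). The effect was above that of WT8 for 8 of the 10 and above that of MUT35 for 6.

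Secreted angiogenic and vasoactive factors were mixed, with 9 of 16 tested higher and 4 lower (median 0.51), and 7 and 4 with the GC trend removed (median 0.28). IGFBP3, which binds insulin-like growth factors, was at 23.5, 25.4, 26.1 and 24.5 CPM with dox and 256, 234, 245 and 206 CPM without. It was the most clearly separated of them (log2 fold change 3.24, SE 0.06, adjusted p = 8.6e-23). PDGFB, VEGFB and APLN, ligands of vascular cells, rose by 1.84, 1.94 and 2.49, while FGF2 fell by 1.11 on the log2 scale and PGF, a relative of VEGFA, was -0.76. In the test against WT8, 5 of the 16 were above and 4 below, and against MUT35 4 were above and 5 below.

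The enzymes that hydroxylate, fold and crosslink collagen rose, 14 of 18 higher and 2 lower. P4HA2, a collagen prolyl hydroxylase, was at 49.1, 54.3, 51.7 and 47.4 CPM with dox and 121, 129, 125 and 142 CPM without. All libraries without dox were above those with dox (log2 fold change 1.35, SE 0.06, adjusted p = 8.7e-16). Its partner P4HB rose by 1.33, the lysyl oxidase LOXL2 by 1.25 and the lysyl hydroxylase PLOD2 by 0.80, whereas P3H2 (-0.81) and LOXL4 (-0.50) were lower. The median of 0.67 fell to 0.31 with the GC trend removed, and that of the collagens themselves from 0.70 (7 of 11 higher, 2 lower) to 0.05 (5 higher, 4 lower). In the test against WT8, 7 of the 18 enzymes were above and 2 below, and 4 of the 11 collagens were above and 1 below; against MUT35 the counts were 6 and 1, and 2 and 2. COL5A1, COL7A1 and COL18A1 were 1.37, 1.38 and 1.51 as counted and 0.89, 0.75 and 0.78 after removal. The collagen chaperone SERPINH1 was 0.54 as counted and -0.03 after removal.

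Genes of mitosis fell together in MUT10. Of 55 tested, 54 were lower and 1 was higher, against 32.3% of all genes lower, at a median of -1.05 on the log2 scale (-0.87 with the GC trend removed, 54 lower and 0 higher). The median was -0.34 in WT8 and -0.99 in MUT35. The effect in MUT10 was below that in WT8 for 54 of the 55 and below that in MUT35 for 2. AURKA, a kinase of the spindle poles, was at 222, 214, 211 and 219 CPM with dox and 83.9, 92.3, 81.7 and 96.9 CPM without. The groups did not overlap (log2 fold change -1.29, SE 0.05, adjusted p = 3.9e-17). CCNB1, the cyclin that drives entry into mitosis, went from 473, 417, 461 and 481 CPM to 151, 166, 172 and 209.8 CPM (log2 fold change -1.39, SE 0.08, adjusted p = 2.9e-14), again with every library without dox below. TPX2, which activates AURKA, CDC20, which starts anaphase, and CENPE, a kinetochore motor, fell by 1.14, 1.16 and 2.10 on the log2 scale. The single member called higher was CDC25B, a phosphatase that activates cyclin-dependent kinases (0.30, -0.08 with the GC trend removed). In bulk RNA, fewer cells in mitosis and less RNA per mitotic cell cannot be told apart.

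DNA replication and nucleotide synthesis fell less uniformly, with 32 of 46 lower and 8 higher at a median of -0.53 (37 lower and 2 higher with the GC trend removed). RRM2, the inducible subunit of ribonucleotide reductase, was at 321, 296, 312 and 354 CPM with dox and 144, 152, 151 and 176 CPM without. Its groups did not overlap (log2 fold change -1.04, SE 0.07, adjusted p = 6.9e-13). CDC6, which loads the replicative helicase, was -0.78, and the exonuclease EXO1 -1.13. The helicase subunit MCM5 went the other way, at 0.68 (adjusted p = 8.6e-06; 0.28 with the GC trend removed). The effect was below that of WT8 for 18 of the 46 and above for 1, and above that of MUT35 for 1.

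Homologous recombination genes were lower for 17 of 20 and higher for 1, at a median of -0.64 (14 and 1 at -0.42 after GC removal), with -0.52 in WT8 and -0.78 in MUT35, and 7 of the 20 below WT8. RAD51AP1, a DNA-binding cofactor of strand exchange, was at 73.4, 60.04, 69.4 and 71.9 CPM with dox and 26.5, 28.6, 26.5 and 37.9 CPM without. All 4 libraries without dox were lower (log2 fold change -1.2, SE 0.10, adjusted p = 5.3e-11). RAD51C (-1.51) and the helicase BLM (-1.09) were lower as well. RAD51B was the one member called higher (0.47, adjusted p = 0.011).

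Nucleolar genes of ribosome biogenesis fell in MUT10 beyond both other clones. Of 45 tested, 36 were lower and 1 higher, at a median of -0.55, and with the GC trend removed 44 were lower and 0 higher (-0.64). The median was -0.13 in WT8 and -0.31 in MUT35, and the effect in MUT10 was below that in WT8 for 37 and below that in MUT35 for 23, against 13.6% and 4.41% of all genes. DDX21, an RNA helicase of the nucleolus, was at 359, 308, 356 and 368 CPM with dox and 150.4, 174, 164 and 188 CPM without. No library without dox reached the level of those with dox (log2 fold change -1.04, SE 0.06, adjusted p = 2.1e-13). NCL, the abundant nucleolar protein nucleolin, was -0.74, and LYAR, a nucleolar regulator of growth, -1.88. The member called higher before removal was PPAN (0.33), which was called lower after it (-0.25).

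**Figure D4:**
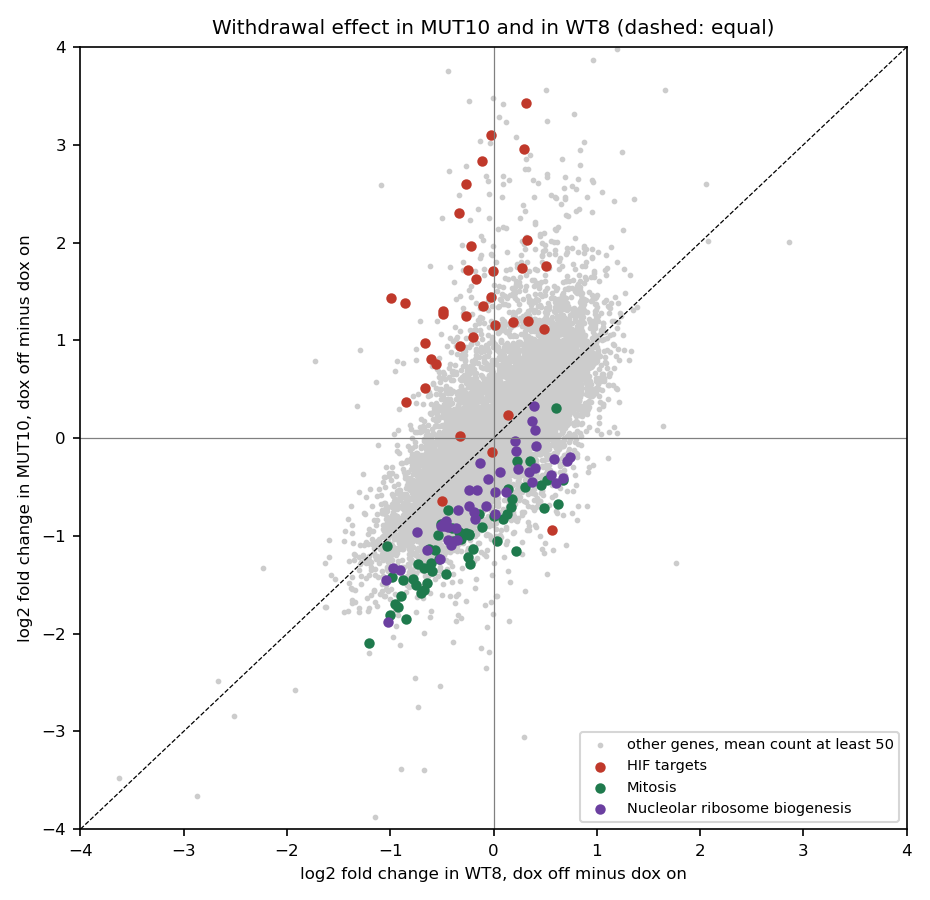
Log2 fold change of dox off over dox on in MUT10 (vertical axis) against that in WT8 (horizontal axis) for the 10682 genes averaging 50 counts or more (8 lie outside the axes, which end at 4). HIF targets lie mostly above the diagonal and genes of mitosis and of the nucleolus below it; the group medians in MUT10 are 1.28, -1.05 and -0.55.

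Nuclear genes of the respiratory chain were lower by small amounts. Of 37 complex I subunits, 21 were lower and 10 higher at a median of -0.26, and of 38 subunits of complexes II to V, 20 were lower and 5 higher at -0.17. The medians in WT8 were -0.12 and -0.21 and those in MUT35 -0.22 and -0.25. The effect differed from that in WT8 for 6 complex I subunits (2 above and 4 below) and for 7 of the others (3 above and 4 below), shares at or under the background of 15% and 13.6%. NDUFC2 (-1.22, adjusted p = 8.7e-10) shares exons with a read-through transcript, so its counts are uncertain. NDUFA8 was -0.94, SDHB of complex II -0.61 and COX7B of complex IV -1.13, while NDUFC1 (0.79), NDUFB8 (0.66) and COX5B (0.61) were higher.

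Genes of the tricarboxylic acid cycle and of pyruvate entry were split, 9 of 26 higher and 12 lower (median -0.16), and 11 higher and 9 lower with the GC trend removed (median -0.07). As counted, 34.6% were higher, near the 33.8% of all genes, and 46.2% lower against 32.3%. Within this group the pyruvate dehydrogenase kinases, which shut pyruvate out of the cycle, rose: PDK1 was at 86.3, 67.4, 76.04 and 75.99 CPM with dox and 134, 148, 144 and 159 CPM without. Every library without dox was higher (log2 fold change 0.94, SE 0.06, adjusted p = 1.6e-12), and PDK3 rose by 1.28 and PDK2 by 0.83. MPC1, a subunit of the mitochondrial pyruvate carrier, fell (-1.2), as did fumarate hydratase, FH (-0.71). Against WT8, 5 of the 26 were above and 4 below, and against MUT35 4 were above and 2 below.

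Of 14 regulators of mitochondrial number and quality, 5 were higher and 5 lower (median -0.12), and 5 and 7 with the GC trend removed (median -0.17). As counted, both shares were 35.7%, near the 33.8% and 32.3% of all genes. PPARGC1A, the coactivator that drives mitochondrial biogenesis, was at 16.2, 14.1, 15.9 and 15.6 CPM with dox and 40.4, 44.4, 43.4 and 49.7 CPM without. The dox states did not overlap (log2 fold change 1.53, SE 0.08, adjusted p = 7.6e-15), and with dox the mean was 15.4 CPM in MUT10 against 49.6 in WT8 and 32.8 in MUT35. BNIP3, a mitophagy receptor, rose by 1.3, its relative BNIP3L by 0.97 and MXI1, an antagonist of MYC, by 1.62. TFAM, which packages mitochondrial DNA, fell from 59.8 to 28.3 CPM (log2 fold change -1.08, SE 0.10, adjusted p = 6.2e-10). The test of the difference put 6 of the 14 above WT8 and 3 below, and against MUT35 4 were above and 1 below.

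JmjC histone demethylases, which like the EGLN enzymes use oxygen and 2-oxoglutarate, were higher for 11 of 20 and lower for 5 (12 and 1 with the GC trend removed). KDM2B and KDM4B rose by 1.01 and 1.2, and KDM4C and KDM6B by 0.89 and 0.96. The median was 0.23, and 5 of the 20 were above WT8 and 1 above MUT35.

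Growth factor genes moved in both directions. Of 10 tested EGF receptor ligands and receptors, 2 were higher and 4 lower (median -0.17; 3 and 5 at a median of -0.08 after GC removal), and those that fell as counted were ligands. AREG, the EGF receptor ligand amphiregulin, was at 554, 569, 530.3 and 553 CPM with dox and 194, 181, 187 and 185 CPM without. Each library without dox was well below each with dox (log2 fold change -1.56, SE 0.05, adjusted p = 1.6e-18), and with dox MUT10 held more AREG RNA than WT8 (136 CPM) or MUT35 (166 CPM). The fold change was 0.30 in WT8 (difference -1.87, adjusted p = 2.7e-16) and -1.37 in MUT35. NRG1, EREG and HBEGF were -0.79, -0.94 and -0.78, and TGFA rose by 1.24 and the receptor ERBB2 by 0.87. Relative to WT8, 1 of the 10 was above and 4 below, and against MUT35 1 was above and 2 below.

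Among 19 FGF receptors, ligands and feedback genes of the ERK pathway, 10 were higher and 5 lower (median 0.16; 6 and 5 with the GC trend removed, median -0.05). FGFR1 was at 47.4, 60.7, 51.1 and 45.7 CPM with dox and 98.4, 86.2, 81.4 and 75.4 CPM without. Its groups did not overlap (log2 fold change 0.74, SE 0.09, adjusted p = 7e-08; 0.40 with the GC trend removed, adjusted p = 1.9e-07). Its log2 fold change was 0.76 in WT8 and 1.15 in MUT35. DUSP6, a phosphatase of ERK, and PHLDA1 rose by 1.14 and 0.87, and the transcription factor ETV4 was -0.75. In the test against WT8, 5 of the 19 were above and 6 below, and against MUT35 2 were above and 5 below.

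In the TNF and NF-kappaB group, 15 of 29 genes were higher and 6 lower, at a median of 0.32 (0.12 with the GC trend removed). The inhibitors TNFAIP3 and TNIP1 rose by 0.97 and 0.93, while the cytokine IL6 and the chemokine CXCL8 were -0.46 and -0.80 (CXCL8 -0.11 after GC removal, adjusted p = 0.15). Against WT8, 3 of the 29 were above and 5 below, and against MUT35 1 was above and 5 below.

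Interferon-stimulated genes did not move as a group, 7 of 30 being higher and 5 lower at a median of -0.03 (8 and 7 at 0.11 after GC removal). STAT2, a transcription factor downstream of interferon, was at 18.3, 20.2, 19.8 and 19.6 CPM with dox and 32.6, 30.6, 36.9 and 31.8 CPM without. Its MUT10 groups did not overlap (log2 fold change 0.75, SE 0.07, adjusted p = 4.6e-10), and its fold change was 0.13 in WT8 and 0.32 in MUT35. HERC5 was -0.90. The test of the difference put 2 of the 30 above WT8 and 3 below, and against MUT35 4 were above and 1 below.

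Of 24 p53 targets and inhibitors of cyclin-dependent kinases, 10 were higher and 8 lower (median 0.29), and 4 and 5 with the GC trend removed (median 0.03). CDKN1A, which encodes the kinase inhibitor p21, was at 35.8, 41.9, 33.6 and 33.2 CPM with dox and 134, 126, 126 and 104 CPM without. All 4 libraries without dox were higher (log2 fold change 1.76, SE 0.08, adjusted p = 7.3e-16; 1.24 with the GC trend removed, adjusted p = 1.2e-18). PLK2 (-0.84) and CDKN2A (-0.65) were lower, and the p53 ligase gene MDM2 was -0.44 as counted and 0.03 after GC removal, so that the rise of CDKN1A was not shared by the group. Relative to WT8, 5 of the 24 were above and 2 below, and against MUT35 2 were above and 1 below.

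Cadherins, regulators of the epithelial-mesenchymal transition and matrix proteases were split, 9 of 22 higher and 8 lower (median -0.01), and 10 and 8 after GC removal (median 0.10). CDH6, a cadherin of the developing nephron (chromosome 5, 31193686 to 31329146), was at 93.5, 86.7, 101 and 95.5 CPM with dox and 414, 396, 405 and 447 CPM without. The groups were well apart (log2 fold change 2.14, SE 0.06, adjusted p = 5.7e-21). With dox, MUT10 stood at 94.1 CPM against 335 in WT8 and 299 in MUT35, and without dox the means were 415, 344 and 433 CPM. INHBA, a subunit of activin, and the growth factor TGFB2 fell (-1.62 and -1.07). FN1, fibronectin, rose by 0.79 where MUT35 was at -0.16 (adjusted p of the difference 1.4e-09), and the collagenase MMP1 by 0.85 where MUT35 was at -1.03 (8.7e-10). In the test against WT8, 6 of the 22 were above and 8 below, and against MUT35 6 were above and 5 below.

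Hyaluronan turnover held the deepest fall in MUT10 among genes averaging 50 counts or more in its libraries. CEMIP, which degrades hyaluronan (chromosome 15, 80779343 to 80951776), was at 116, 130.4, 123 and 121 CPM with dox and 0.413, 0.344, 0.734 and 0.483 CPM without. After withdrawal 4 to 6 counts were left in each library (log2 fold change -7.97, SE 0.19, adjusted p = 1.4e-21), and at so few counts the size of the fold is imprecise. CEMIP fell in WT8 (-5.28) and MUT35 (-5.33) too, from lower levels with dox (16.9 and 29.4 CPM) to like ones without (0.443 and 0.709 CPM). Of the 7 genes tested in this group 2 were higher and 4 lower (median -0.18; 1 and 4 after GC removal, median -0.29), among them the synthase HAS3 (-0.70) and the receptor HMMR (-1.86), which also serves the mitotic spindle. Against WT8, 0 of the 7 were above and 4 below, and against MUT35 3 were below.

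Of 11 markers of the renal lineage 5 were tested, of which 3 were higher and 1 lower (median 1.13). With the GC trend removed 3 were higher and 2 lower (median 0.82). In WT8 5 were higher and 0 lower (median 0.70), and in MUT35 3 and 0 (median 0.91). The effect in MUT10 was above that in WT8 for 2 and below for 1. It was above that in MUT35 for 1 and below for 1. PAX8, a transcription factor of the nephron, was at 175, 231, 188 and 171 CPM with dox and 557, 457, 496 and 359.5 CPM without. The groups did not overlap (log2 fold change 1.29, SE 0.10, adjusted p = 6.7e-11). TFAP2A rose by 1.13, and LHX1 was -0.37. HNF4A, EMX2 and TFAP2B were at 0 in all 8 libraries. Of the 4 proximal tubule markers tested, 3 were higher (median 0.57, 0.86 after GC removal): GGT1, a brush border enzyme (1.51), MME (0.66) and SLC4A4 (0.48). Their summed level went from 97.0 to 104 CPM with dox to 184 to 190.0 CPM without.

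The keratins of renal epithelium were 2 of 6 higher and 3 lower (median -0.07), but 1 higher and 5 lower with the GC trend removed (median -0.47), and 4 of the 6 were below WT8. KRT7, a keratin of simple epithelia, was at 7.31, 8.63, 5.42 and 6.18 CPM with dox and 1.96, 3.01, 2.57 and 1.16 CPM without. Each library without dox was lower (log2 fold change -1.65, SE 0.24, adjusted p = 1.2e-06), and the fold change in WT8 was 0.72. KRT19 rose by 1.19 (0.68 with the GC trend removed) and KRT18 was -0.36. Their summed level was 699 to 880 CPM with dox and 614 to 747 CPM without. Among markers of other cell types, the lung genes ABCA3 and NAPSA were the 2 of 11 tested. Both were higher as counted (0.72 and 1.31), and neither was called after GC removal (0.21 and 0.85). CD68, a lysosomal protein of macrophages and other cells, rose by 0.53 (0.18 after GC removal). Of the 3 fibroblast genes tested DCN rose (from 0.0658 to 1.67 CPM, adjusted p = 1.5e-06; edgeR) and LUM was -0.64 as counted and 0.01 after GC removal. The fibroblast markers summed to 45.4 to 51.0 CPM with dox and 34.9 to 41.2 CPM without, with PDGFRA and COL1A2 at 0, and those of leukocytes to 273 to 403 CPM and 372 to 556 CPM. The endothelial markers summed to 0.0969 to 0.522 CPM and 0.413 to 0.676 CPM. The part of other cell types in the results was not tested.

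Genes of cholesterol and fatty acid synthesis rose as a group. Of 26 tested, 18 were higher and 1 lower, with a median of 0.42 (20 higher and 1 lower with the GC trend removed), 0.22 in WT8 and 0.16 in MUT35. SCD, the stearoyl-CoA desaturase, was at 472, 516, 499.5 and 469 CPM with dox and 1554, 1318, 1344 and 1326 CPM without. Its groups did not overlap (log2 fold change 1.5, SE 0.05, adjusted p = 4.5e-18). INSIG1, a sterol sensor of the endoplasmic reticulum, rose by 0.97 and the transcription factor SREBF2 by 0.98. The member called lower as counted was SC5D, a late enzyme of the pathway (-0.35), which was 0.24 after GC removal. The test of the difference put 15 of the 26 above WT8 and 2 below, and against MUT35 9 were above and 1 below.

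Genes of the integrated stress response were higher for 17 of 25 and lower for 2 (median 0.26). With the GC trend removed, 10 were higher and 1 lower among the 23 that had a GC value (median 0.04). TRIB3, a pseudokinase induced by ATF4, was at 102, 125, 109 and 95.4 CPM with dox and 314, 311, 331 and 248 CPM without. All libraries without dox were higher (log2 fold change 1.48, SE 0.09, adjusted p = 4.9e-13). DDIT4, an inhibitor of mTORC1 that HIF also induces, rose by 1.71 and ATF4 itself by 0.46, while MTHFD2, a mitochondrial folate enzyme, was -0.36 as counted and 0.01 after GC removal. VLDLR, a lipoprotein receptor listed here and among the HIF targets, rose by 1.15 against 0.17 in MUT35 (adjusted p of the difference 8.5e-11). Relative to WT8, 10 of the 25 were above and 0 below, and against MUT35 9 were above and 1 below.

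Of 12 lipid droplet genes tested, 6 were higher and 2 lower (median 0.20), and 3 and 4 with the GC trend removed (median 0.09). HILPDA, a droplet protein induced by hypoxia, went from 8.86, 12.1, 9.78 and 9.01 CPM to 41.1, 43.98, 41.2 and 35.6 CPM. The groups did not overlap (log2 fold change 2.02, SE 0.10, adjusted p = 9.1e-15). PLIN2, the main coat protein of droplets, rose by 0.44, while the fatty acid binding protein FABP5 and the lipase inhibitor G0S2 were -0.88 and -0.85. In the test against WT8, 4 of the 12 were above and 2 below, and against MUT35 3 were above and 1 below. The medians of all groups are drawn beside each other for the 3 clones in the plot of list medians.

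**Figure D5:**
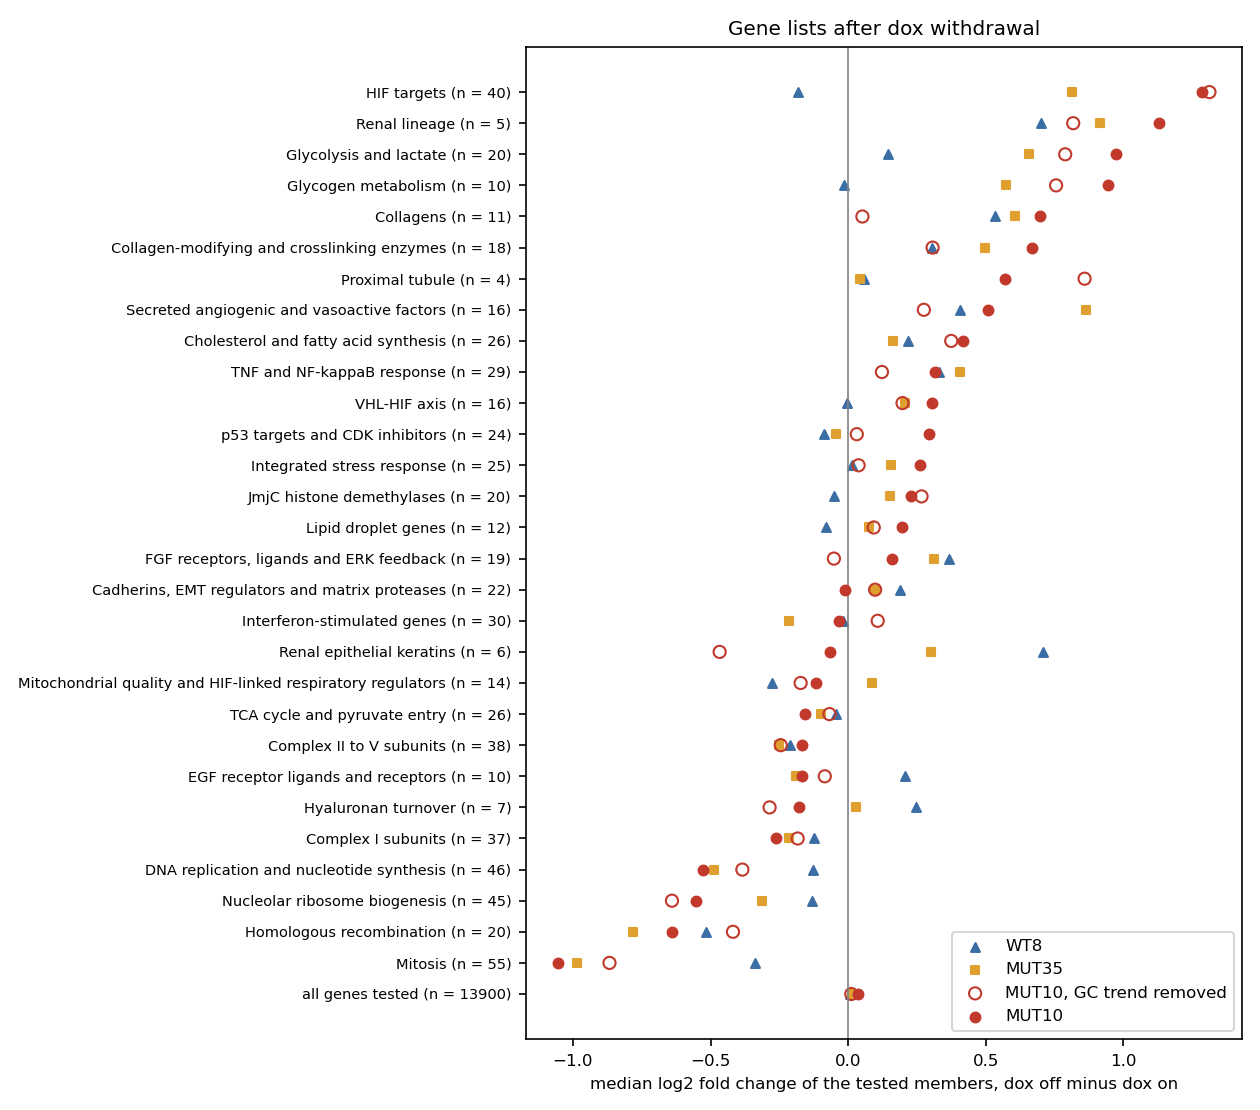
Median log2 fold change of dox off over dox on (horizontal axis) for each gene group with at least 4 tested members (vertical axis) in MUT10, as counted (filled) and with the GC trend removed (open), and in WT8 and MUT35. In MUT10 the groups run from -1.05 for mitosis to 1.28 for HIF targets, and the collagens move from 0.70 to 0.05 when the trend is removed.

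The largest changes included many genes outside these groups. They were chosen by the size of the change among genes that averaged 50 counts or more and whose groups did not overlap, so their values are a description. ARFGEF3, an inhibitor of insulin granule formation (chromosome 6), was at 1.68, 1.84, 2.32 and 2.16 CPM with dox and 38.7, 36.4, 37.1 and 42.2 CPM without. Withdrawal thus took it from a trace to a clear signal in all 4 libraries (log2 fold change 4.25, SE 0.13), with 0.35 in WT8 and 2.43 in MUT35. SPNS2, the exporter of sphingosine 1-phosphate, went from 1.198, 0.643, 0.969 and 0.745 to 17.2, 16.4, 18.96 and 12.4 CPM (4.21). FXYD2, the gamma subunit of the renal sodium pump, rose by 3.98 and AHNAK2 by 3.56. FXYD2 lies within the read-through gene FXYD6-FXYD2 and may share its reads.

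Other large rises were those of TMEM145, from 2.21 to 31.9 CPM, ADCY8, an adenylyl cyclase, from 1.28 to 17.7 CPM, and KCNJ15, an inward-rectifier potassium channel, from 1.74 to 19.5 CPM. RSPO3, which enhances Wnt signalling, went from 0.853 to 9.65 CPM and the uncharacterised LOC115110 from 0.311 to 10.8 CPM. PRODH, the proline dehydrogenase, had 1 or 2 counts in each library with dox, under the 3 taken as the floor, and 11.7, 10.2, 11.3 and 7.34 CPM without, so no fold is given. The read-through gene NDUFC2-KCTD14 was at 0, 3.58, 0 and 0 CPM with dox and 30.7, 27.6, 27.8 and 25.8 CPM without, while KCTD14 went the other way, from 26.9 to 2.44 CPM. These genes share exons with NDUFC2, so how the reads were divided among them sets their values. The log2 fold change of KCTD14 was -3.63 in WT8 and -3.79 in MUT35.

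Falls were led by CEMIP and, after it, TRIM55, a ubiquitin ligase known from muscle, at 106, 106, 106 and 104 CPM with dox and 5.68, 7.403, 8.44 and 7.34 CPM without. No library without dox came near those with dox (log2 fold change -3.87, SE 0.09), and the change was -1.15 in WT8 and -2.22 in MUT35. The long noncoding RNA SFTA1P fell from 19.5 to 1.85 CPM (-3.4), C9orf84 from 17.9 to 1.63 CPM (-3.39) and CRISPLD2, a secreted glycoprotein, from 41.1 to 4.94 CPM (-3.06). DKK1, a secreted inhibitor of Wnt signalling, fell from 107 to 18.3 CPM (-2.54), MT1G, a metallothionein with near-identical relatives, from 45 to 8.27 CPM (-2.45), CDK15 from 9.699 to 1.44 CPM (-2.76) and HMGN5 from 12.1 to 2.02 CPM (-2.58).

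Differences from WT8 past 2-fold numbered 599 above and 279 below. For the 599, chosen by that difference and so described without a test, the median gap between MUT10 and WT8 was 1.16 on the log2 scale without dox and -0.27 with dox, and 356 had a level without dox more than 2-fold higher in MUT10, while for 114 the level with dox was more than 2-fold lower in MUT10. For the 279, the median gaps were -1.20 and 0.09. The levels after withdrawal thus differed more often than those under dox. HTRA1, a secreted serine protease, was at 3.11, 3.12, 3.197 and 2.83 CPM with dox and 32.04, 31.8, 31.7 and 37.5 CPM without in MUT10 and averaged 7.29 and 6.11 CPM in WT8 (difference of effects 3.68). SGPP2, a phosphatase of sphingosine 1-phosphate, was likewise 3.42 in MUT10 and 0.09 in WT8. CA9, ARFGEF3 and SPNS2 were also among the 6 genes furthest above WT8, the last 2 with differences of 3.9 and 3.41. PTPRN, the sixth, went from 0.155 to 2.36 CPM in MUT10, a level below that of WT8 in either state (7.904 and 11.6 CPM).

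Furthest below WT8 were NDUFC2-KCTD14 and EIF3C, whose counts depend on how reads were shared with overlapping or near-identical genes, and 4 others. The call for NDUFC2-KCTD14 rested on replicate 2 with dox, the one MUT10 library with dox that held any count of it, and was lost without that library, as the call for EIF3C was without any of 6 of the 8 libraries taken singly. CRISPLD2 was at 36.05, 43.3, 45.1 and 39.7 CPM with dox and 5.89, 3.87, 4.404 and 5.604 CPM without in MUT10, and averaged 119 and 146 CPM in WT8. It therefore fell in MUT10 and was 0.30 in WT8 (difference -3.36). SFTA1P was -3.4 in MUT10 and -0.67 in WT8 (difference -2.73). MIR205HG, the host transcript of a microRNA, went from 4.15 to 0.3305 CPM in MUT10 and from 27.3 to 24.2 CPM in WT8. ANK3, an ankyrin, went from 2.85 to 0.216 CPM in MUT10 and from 16.3 to 11.9 CPM in WT8. Without dox, MUT10 libraries held 3 to 4 counts of MIR205HG and 0 to 4 of ANK3, so the size of these differences is imprecise. EIF3C was at 23.4 and 9.697 CPM in MUT10, not called there (adjusted p = 0.17).

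MUT10 and MUT35, the knockout clones, differed by more than 2-fold in the withdrawal effect for 204 genes above and 71 below. For the 204 the median gap between MUT10 and MUT35 was 0.54 without dox and -0.76 with dox, the gap with dox being the larger in 111, and for the 71 it was -0.50 without dox and 0.81 with dox, the gap with dox being larger in 39. Here, then, the levels under dox carried at least as much of the difference as those after withdrawal, as EPAS1 and CDH6 show. HTRA1 stood furthest above apart from CA9, being at 70.04 and 92.3 CPM in MUT35 (difference 3.05), so that MUT10 without dox stayed below MUT35 in either state. SLCO4C1, an organic anion transporter of the kidney, was at 5.75, 4.77, 5.42 and 6.63 CPM with dox and 47.2, 45.02, 42.9 and 48.7 CPM without in MUT10, and averaged 38.4 and 68.1 CPM in MUT35 (difference 2.19). CHI3L1, a secreted chitinase-like protein, rose by 2.25 and was 0.08 in MUT35, and KCNJ15 rose by 3.56 against 1.52. SLC29A4, a monoamine transporter, averaged 0.436 and 7.94 CPM in MUT10 and 3.74 and 12.7 CPM in MUT35.

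Furthest below MUT35, beside NDUFC2-KCTD14, CEMIP and CRISPLD2, were NETO1, CLDN16 and TAGLN. The call for NDUFC2-KCTD14 was lost here too without replicate 2 with dox, and without replicate 2 or replicate 3 of dox off (differences -0.074, -6.31 and -6.33, adjusted p = 1.000, 0.061 and 0.059); the replicate block, limma-voom and a fit to the 2 clones alone gave adjusted p = 0.057, 0.29 and 0.087. CLDN16, a claudin of the thick ascending limb, was at 99.2, 87.03, 95.6 and 97.2 CPM with dox and 21.1, 21.3, 17.1 and 23.4 CPM without in MUT10. It fell in every library, and averaged 1.69 and 1.43 CPM in MUT35 and 13.3 and 12.8 CPM in WT8. TAGLN, the actin-binding protein transgelin, was -0.55 in MUT10 and 1.26 in MUT35, and 0.77 in WT8. NETO1, a subunit associated with glutamate receptors, went from 12.9 to 7.92 CPM in MUT10 and was at or near the level of 3 counts in MUT35, so that the difference rests on very few counts there.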

How the data were processed

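RNA of HK2 clones was sequenced in 24 libraries. Expected counts per gene symbol were made by the authors with RSEM and bowtie2 on hg38 (versions not given in the sources used here) and deposited unscaled. The paper's methods and the sample labels name different library kits, and whether strand was kept is therefore unclear for overlapping antisense genes. Counts were rounded, filtered by edgeR's filterByExpr (13900 of 26475 symbols kept) and fitted by edgeR 4.0.16 (R 4.3.3) with TMM factors and a mean for each of 6 clone and dox groups. Quasi-likelihood tests gave the MUT10 contrast and its differences from WT8 and MUT35, with Benjamini-Hochberg adjustment over all genes and a threshold of 0.05. CPM of 3 counts in a library was taken as the floor. VHL was tested by exact permutation.

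Gene groups come from textbook membership, and they, like the members, were chosen with earlier results of these data known; they are described by counts and medians. Named genes are those the study names, the 12 largest rises and falls, up to 4 group members by adjusted p in each direction with any that opposed their group, and the 6 largest differences from each clone in each direction. Other members were named after their values were seen. Results for several genes were left out of this account. GC trends were removed by a lowess fit (span 0.3) in each library, using GENCODE 44 transcripts, for 13458 genes. Alternatives were DESeq2 1.42.0, limma-voom (limma 3.58.1), RLE factors, library size alone, other filters, only the clones compared, a replicate block, and libraries left out. In a simulation of the MUT10 contrast over 13592 genes, 80% of 1.5-fold, 93.8% of 2-fold and 100% of 4-fold changes were recovered. It gave every gene the same spread between replicates (a coefficient of variation of 8.4%), changed only a small set of genes and held no GC trend. The real libraries differ in these points, so the rates need not hold for them. Figures were drawn with matplotlib 3.10.9.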

Additional observations from a re-analysis of the deposited data

Results flagged for a closer look

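Of 372 groups of 4 MUT10 libraries examined for the genes named, 14 held 1 library whose gap to the others was large for the range of its group; chance alone marks about 1 group in 20. After withdrawal, replicate 4 was that library for EPAS1 (325 CPM) and ENO2 (457 CPM), where it was the lowest, and for BLM (12.3 CPM), G0S2 (71.7 CPM) and HTRA1 (37.5 CPM), where it was the highest. It is also the library without dox whose GC trend (-0.02) lay closest to those with dox, and its part in these values was not tested. Replicate 1 without dox was the one for SCD (1554 CPM, the highest). With dox, replicate 2, of intermediate GC trend, was the one for ATF4 (439 CPM), ETV4 (29.1 CPM) and NDUFC2-KCTD14 (3.58 CPM), where it was the highest, and for KCTD14 (23.9 CPM), where it was the lowest. Replicate 1 with dox stood apart for LOC115110 (0.719 CPM), replicate 3 for GYG1 (134.6 CPM) and replicate 4 for SLC4A4 (25.6 CPM) and TRIM55 (104 CPM).

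Named genes whose withdrawal effect was called in opposite directions in MUT10 and another clone, or which were among the genes furthest apart, were marked as well, each by edgeR's test of the difference. Among genes of the hypoxia and metabolic groups the effect in MUT10 exceeded that in WT8 by 2.64 for LOX, 1.75 for PGK1, 0.94 for LDHA, 1.79 for BNIP3, 1.64 for BNIP3L, 1.31 for EGLN1, 1.91 for GBE1, 2.09 for PPP1R3C, 1.27 for PDK1, 1.58 for PDK3, 1.79 for MXI1, 1.41 for PLOD2 and 0.62 for PLIN2, all on the log2 scale. These are genes with a negative fold change in WT8, from -0.71 for GBE1 to -0.17 for MXI1, and a positive one in MUT10. Other genes above WT8 were ARFGEF3 (3.9), HTRA1 (3.68), SPNS2 (3.41), SGPP2 (3.33), MME (1.13) and RAD51B (1.1).

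Below WT8 were AREG (-1.87), CDC20 (-1.37), KRT7 (-2.37), KRT18 (-0.76), LHX1 (-0.58), ETV4 (-1.35), HAS3 (-1.08), TAGLN (-1.31), CRISPLD2 (-3.36), MIR205HG (-3.42) and SFTA1P (-2.73). The value for MIR205HG rests on 3 to 4 counts in each MUT10 library without dox and is imprecise. The difference from MUT35 was positive for FN1 (0.95), MMP1 (1.88), HTRA1 (3.05), CHI3L1 (2.18), KCNJ15 (2.04) and SLCO4C1 (2.19). It was negative for HBEGF (-1.18), HAS3 (-0.85), STC2 (-0.49), CEMIP (-2.63), CLDN16 (-1.92), CRISPLD2 (-2.4), NETO1 (-2.4) and TAGLN (-1.8).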

How the results depend on the processing

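Of 192 recomputed totals, 181 stayed within 1.5 times their value. With the GC trend removed, 767 genes were higher and 441 lower by over 2-fold, against 1250 and 747, and the effect was above that of MUT35 for 1403 genes and below for 1230, against 931 and 613. Leaving out both MUT10 libraries of intermediate GC trend gave 1208 genes lower by over 2-fold and 1320 below MUT35. Requiring at least 10 counts in every library left 160 genes below WT8 by over 2-fold, against 279. Leaving out 1 MUT10 library at a time gave 4078 to 4871 genes higher, 4058 to 4789 lower, 1098 to 1467 higher and 587 to 1011 lower by over 2-fold, 1785 to 2193 above and 1719 to 2229 below WT8, 544 to 613 and 260 to 308 of these by over 2-fold, and 773 to 1057 above and 505 to 840 below MUT35; the lowest value for genes lower by over 2-fold came without replicate 1 of dox off and the highest without its replicate 4. The cause of these shifts was not tested.

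The replicate numbers did not pair the samples (correlations of same-numbered deviations -0.15, 0.05, -0.05 and 0.29). A replicate block gave 4716 genes higher and 4492 lower, 1249 and 734 by over 2-fold, and together with GC removal 767 and 437, with 1406 above and 1249 below MUT35. After GC removal the fold change changed sign for CDC25B (-0.081, and -0.081 with the block), HIF1A (0.043 and 0.044), LUM (0.012 and 0.013), MDM2 (0.034 and 0.037), MTHFD2 (0.011 and 0.012), PPAN (-0.25 and -0.24), SC5D (0.24 and 0.24), SERPINH1 (-0.034 and -0.035) and SLC16A1 (0.10 and 0.10). KDM3A was -0.18 without both intermediate libraries. Leaving out 1 library ended the call of RAD51B (0.36 without replicate 4 of dox off) and, for several libraries each, those of LOXL4, NAPSA, PGF, PPAN and STC2. Of 3506 recomputed fold changes of named genes, 3428 kept their direction and side of the threshold. Genes at a few counts in a library, such as PRODH with dox, carry no usable fold at this depth.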
